A study of Mus musculus with 4 samples.

Results

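The receptors for interleukin-12 (IL-12), interleukin-23 (IL-23), interleukin-18 (IL-18), interferon gamma and the type I interferons were examined in TS2 and TS1, 2 mouse lines with a CD4-positive T lymphocyte origin per their labels. The 9 genes are the listed chains of these receptors, Il12rb1, Il12rb2, Il23r, Il18r1, Il18rap, Ifngr1, Ifngr2, Ifnar1 and Ifnar2, out of 19938 genes measured. Each was read by 1 probe set that the platform annotation assigns to that gene alone. Both lines grew in Iscove-Dulbecco's medium with murine interleukin-9, with no further treatment, and RNA of 2 biological duplicates per line (A and B) was read on Affymetrix mouse arrays, 1 per duplicate. No strain, age or clonal origin of the lines is given in the sources used here, nor whether the duplicates were separate cultures, so p-values measure the spread between these arrays. A difference is the mean log2 intensity of TS2 minus that of TS1, given with its standard error (SE) and the Benjamini-Hochberg adjusted p over all genes from a limma fit, and a gene is called at an adjusted p under 0.05. With 2 arrays against 2, an exact two-sided permutation test cannot give a p below 0.333.

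IL-12 and IL-23 are cytokines of antigen-presenting cells that share a subunit, and their receptors share the chain encoded by Il12rb1. Il12rb2 completes the IL-12 receptor, which signals through the kinases Jak2 and Tyk2 to the transcription factor Stat4, and Il23r completes the IL-23 receptor. In T cells IL-12 and IL-18 together drive production of interferon gamma. Il18r1 binds IL-18 and Il18rap is the accessory chain that allows signalling through Myd88. Ifngr1 and Ifngr2 form the interferon gamma receptor, and Ifnar1 and Ifnar2 form the receptor of the type I interferons.

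Of the 9 receptor genes, 3 were higher in TS2, 0 were lower and 6 did not pass by limma. At an unadjusted p under 0.05, 4 were higher and 0 lower. The 3 were Il12rb1, Il18rap and Ifngr1, 1 chain each of the IL-12, IL-18 and interferon gamma receptors. Over all genes 13.5% were called, 5.05% higher in TS2 and 8.45% lower. Without moderated variances limma called 0 of the 9, and 0 of all genes (4156 at an unadjusted p under 0.05). The median difference of the 9 genes was 0.49, against 0.013 for all genes. Both TS2 arrays lay above both TS1 arrays for 5 of the 9 and below them for 1, and the arrays overlapped for 3. Over all genes the TS2 arrays lay above for 29.1% and below for 29.3%, which makes 58.4% without overlap.

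**Figure D1:**
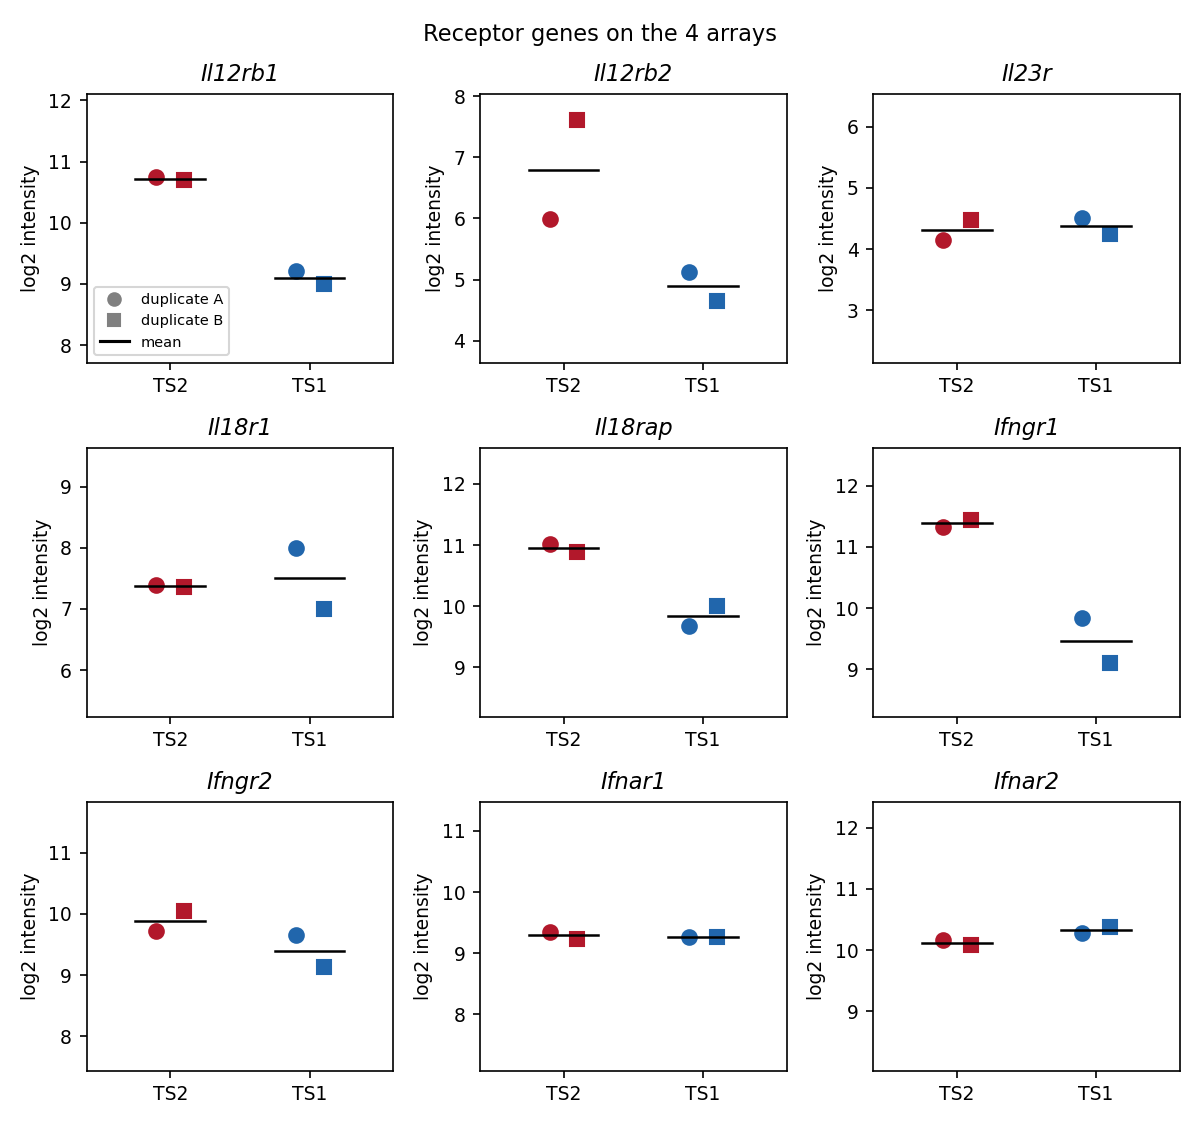
Log2 intensity (vertical axes, each spanning the same number of log2 units) of the 9 receptor genes on the 4 arrays, with circles for duplicate A, squares for duplicate B and a line at the mean of each cell line. Il12rb1, Il18rap and Ifngr1 are set apart by line, Il12rb2 is high on TS2 B, and the TS1 duplicates of Il18r1 lie on either side of TS2.

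The shared chain of the IL-12 and IL-23 receptors was higher in TS2. Il12rb1 had intensities of 1724 on TS2 A and 1653 on TS2 B, against 594 on TS1 A and 510 on TS1 B. The duplicates lay close together in both lines and the lines did not overlap. Il12rb1 was 3.07-fold higher in TS2 (difference 1.62, SE 0.11, adjusted p = 0.00201, n = 2 per line), with a 95% interval of 2.52-fold to 3.74-fold. Only 2.95% of all genes had a larger difference in either direction. Its call held whichever array was left out, with an adjusted p of at most 0.0165, and it was the 1 receptor gene that also passed an adjusted p of 0.01.

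The chain particular to IL-12, Il12rb2, was far apart between the TS2 duplicates. Its intensity was 63.6 on TS2 A and 194.3 on TS2 B, against 35.0 on TS1 A and 25.1 on TS1 B. Both TS2 arrays were above both TS1 arrays, and TS2 B was 3.05-fold above TS2 A. Only 0.246% of all genes had a wider gap between the TS2 duplicates. The mean log2 value was 6.80 ± 1.14 (SD, n = 2) in TS2 and 4.89 ± 0.34 (SD, n = 2) in TS1. Its difference of 1.91 (SE 0.54) had a 95% interval of 0.53 to 3.28 and did not pass after adjustment (adjusted p = 0.0853). Without TS2 A the difference was 2.71 and passed (adjusted p = 0.0121), and without TS2 B it was 1.10 and did not (adjusted p = 0.0928). The chain particular to IL-23, Il23r, had intensities of 17.8 and 22.2 on TS2 A and B, against 22.8 and 18.9 on TS1 A and B. All 4 values overlapped, and the difference of -0.064 had a 95% interval of -0.47 to 0.34 (adjusted p = 0.840). The 4-array mean of the Il23r probe set lay at percentile 11.9 of all genes. Signal over background was not examined, so whether the transcript was present cannot be read from these values.

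Of the IL-18 receptor chains, 1 was called. Il18rap, the signalling accessory chain, had intensities of 2068 on TS2 A and 1891 on TS2 B, against 818 on TS1 A and 1026 on TS1 B. The lines did not overlap, and Il18rap was 2.16-fold higher in TS2 (difference 1.11, SE 0.14, adjusted p = 0.0112). That call was lost without TS2 A, where the difference was 1.05 (adjusted p = 0.0647). Il18r1, the binding chain, read 167.0 on TS2 A and 164.8 on TS2 B, against 256.3 on TS1 A and 128.5 on TS1 B. The TS2 values fell between the TS1 duplicates, which were 1.99-fold apart, a gap exceeded by 1.11% of all genes. Il18r1 differed by -0.13 (SE 0.33, 95% interval -0.96 to 0.71, adjusted p = 0.844). Without TS1 B its difference was -0.63 and passed (adjusted p = 0.0473), while without TS1 A it was 0.37 (adjusted p = 0.110), so its direction turned on a single array.

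Among the interferon gamma receptor chains, the ligand-binding Ifngr1 stood apart by line. Its intensities were 2575 and 2773 on TS2 A and B, against 912 and 549 on TS1 A and B. TS1 A was 1.66-fold above TS1 B, yet both were far below either TS2 array. Ifngr1 was 3.78-fold higher in TS2 (difference 1.92, SE 0.25, adjusted p = 0.0121), with a 95% interval of 2.43-fold to 5.87-fold. The call was lost without TS2 A (difference 1.97, adjusted p = 0.0558) and without TS2 B (difference 1.86, adjusted p = 0.0611), although the difference hardly moved. The signalling chain Ifngr2 read 847 on TS2 A and 1056 on TS2 B, against 804 on TS1 A and 562 on TS1 B. TS2 A and TS1 A were almost level and the lines did not overlap. Ifngr2 differed by 0.49 (SE 0.21), with a 95% interval of -0.044 to 1.03 (adjusted p = 0.201). Its difference was 0.75 without TS1 A and 0.23 without TS1 B, and neither passed.

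The type I interferon receptor had the narrowest spread. Ifnar1 read 654 and 605 on TS2 A and B, against 615 and 617 on TS1 A and B. These values overlapped, and the difference of 0.030 had a 95% interval of -0.21 to 0.27 (adjusted p = 0.875). Ifnar2 read 1153 and 1079 on TS2 A and B, against 1247 and 1336 on TS1 A and B. It was the 1 receptor gene with both TS2 arrays below both TS1 arrays. Its difference of -0.21 (SE 0.095, 95% interval -0.46 to 0.034) did not pass (adjusted p = 0.225).

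**Figure D2:**
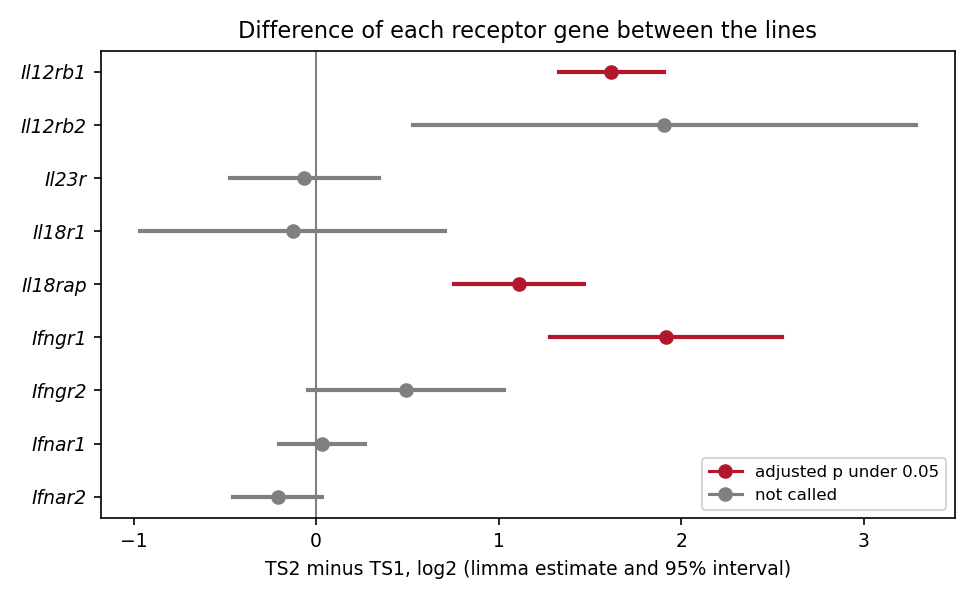
Difference of each receptor gene, TS2 minus TS1 on the log2 scale (horizontal axis), as the limma estimate with its unadjusted 95% interval, in red where the adjusted p is under 0.05. Il12rb1, Il18rap and Ifngr1 are called at 1.62, 1.11 and 1.92, and the interval of Il12rb2, from 0.53 to 3.28, is the widest.

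Chains that form 1 receptor were set against each other within each array. This describes how the chains differed between the lines and is not a ratio of molecules. With 2 arrays against 2 the permutation test cannot decide whether the change was unequal. For Ifngr2 over Ifngr1 the log2 ratio was -1.60 on TS2 A and -1.39 on TS2 B, against -0.18 on TS1 A and 0.033 on TS1 B. The lines did not overlap, and the ratio differed by -1.42 (exact two-sided permutation p = 0.333, the smallest this design can give, n = 2 per line). For Il18rap over Il18r1 the ratio was 3.63 and 3.52 on TS2 A and B, against 1.67 and 2.997 on TS1 A and B, a difference of 1.24 without overlap. The ratio of Il23r over Il12rb1 differed by -1.68, but since the presence of Il23r cannot be read this ratio does not describe both chains. Ifnar2 over Ifnar1 differed by -0.24, also without overlap. Only Il12rb2 over Il12rb1 overlapped, with -4.76 and -3.09 on TS2 A and B, against -4.08 and -4.34 on TS1 A and B. Across these 5 pairs the exact permutation p was 0.333 for 4 (0.417 after Benjamini-Hochberg adjustment) and 1 for the overlapping pair. Of all single genes 58.4% had no overlap between the lines, so a lack of overlap is common with these arrays.

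The promoters of Il12rb2, Il18rap, Il18r1, Ifngr1 and Ifngr2 are shown to let their sequences be compared. Those of Il23r, Ifnar1 and Ifnar2 are not printed. Entries for 8 of the 9 genes were found in RefSeq sequences of mouse build GRCm38.p6, each covering 250 bases before and 50 after an annotated start, and Il12rb1 was not among them. Il18r1 had 3 entries, of which the one with motif matches is printed. Capitals mark matches to TTCNNNGAA, a site form bound by STAT factors, and all other bases are in lower case. Forms with another spacing between TTC and GAA were not searched, so lower case does not mean that they are absent.
Il12rb2 (chr6:67376139-67376438, minus strand): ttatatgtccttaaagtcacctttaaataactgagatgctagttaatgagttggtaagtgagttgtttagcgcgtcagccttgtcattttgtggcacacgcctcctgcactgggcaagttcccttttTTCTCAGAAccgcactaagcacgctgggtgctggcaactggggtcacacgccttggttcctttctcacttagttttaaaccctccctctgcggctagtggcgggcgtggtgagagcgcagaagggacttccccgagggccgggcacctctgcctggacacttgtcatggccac
Il18rap (chr1:40515112-40515411, plus strand): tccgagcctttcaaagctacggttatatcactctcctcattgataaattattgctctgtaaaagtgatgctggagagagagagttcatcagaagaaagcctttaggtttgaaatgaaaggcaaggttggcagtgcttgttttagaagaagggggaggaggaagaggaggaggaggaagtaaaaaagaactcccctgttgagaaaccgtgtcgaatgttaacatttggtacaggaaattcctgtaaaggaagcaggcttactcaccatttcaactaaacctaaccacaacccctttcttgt
Il18r1 (chr1:40465756-40466055, plus strand): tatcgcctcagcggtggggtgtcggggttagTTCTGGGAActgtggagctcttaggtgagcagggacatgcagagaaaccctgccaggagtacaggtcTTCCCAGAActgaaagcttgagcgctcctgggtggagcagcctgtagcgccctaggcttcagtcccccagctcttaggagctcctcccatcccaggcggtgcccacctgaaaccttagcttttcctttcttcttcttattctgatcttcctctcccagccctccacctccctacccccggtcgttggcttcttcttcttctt
Ifngr1 (chr10:19591699-19591998, plus strand): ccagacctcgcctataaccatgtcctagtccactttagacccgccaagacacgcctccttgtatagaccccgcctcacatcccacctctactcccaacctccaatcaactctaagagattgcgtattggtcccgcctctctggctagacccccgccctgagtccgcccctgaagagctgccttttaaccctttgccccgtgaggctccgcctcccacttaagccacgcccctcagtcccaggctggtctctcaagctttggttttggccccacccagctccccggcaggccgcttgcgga
Ifngr2 (chr16:91546809-91547108, plus strand): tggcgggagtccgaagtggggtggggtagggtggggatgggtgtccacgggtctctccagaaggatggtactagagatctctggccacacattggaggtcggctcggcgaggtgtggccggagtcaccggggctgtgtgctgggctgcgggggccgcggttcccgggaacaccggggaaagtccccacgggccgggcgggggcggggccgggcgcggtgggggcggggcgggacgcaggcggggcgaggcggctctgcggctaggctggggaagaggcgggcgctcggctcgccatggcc

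The search covered both strands for TTCNNNGAA, for an interferon response element, for the site of GATA factors, which reads AGATAA, and for the T-box site TCACACCT. TTCNNNGAA was found in 4 of the 10 entries of these genes, against 8.3% of 32851 promoter entries of the same length. In Il12rb2 it lay at positions -123 to -115 relative to the start, and the Il18r1 entry shown held 2 matches. The other matches were in Ifnar1 and Ifnar2, and none of these 4 genes was called. Il18rap and Ifngr1, both called, held none of the 4 forms in this window. The interferon response element (3.44% of all entries), AGATAA (11.2%) and TCACACCT (1.28%) were in none of the 10. The promoters also differed in base composition. Ifngr1 held 14 CpG pairs at 60.3% G and C, and Ifngr2 held 31 at 74.3%. Il18rap held only 4 at 42.3%, and the printed Il18r1 entry 8 at 57.0%, against a median of 7 over all entries.

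Several of the receptor genes are neighbours in the mouse genome, by the RefSeq gene order of GRCm38.p6. Il18r1 and Il18rap are adjacent measured genes on chromosome 1, Il12rb2 and Il23r on chromosome 6, and Ifnar2, Il10rb, Ifnar1 and Ifngr2 follow each other on chromosome 16. On chromosome 1 only Il18rap of the pair was called, and on chromosomes 6 and 16 no receptor gene was. Past Il18rap, Slc9a4 differed by 0.10 (adjusted p = 0.519), and Slc9a2, a sodium and proton exchanger, by 3.08, a call higher in TS2 (SE 0.46, adjusted p = 0.0172). Il20ra, a receptor chain of the interleukin-20 family, is the next measured gene but 1 after Ifngr1 on chromosome 10 and was called higher, with a difference of 3.20 (SE 0.094, adjusted p = 0.000257). Il22ra2, which encodes a soluble decoy receptor and lies between them, differed by 0.19 (adjusted p = 0.275).

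Of the 31 other genes among the 3 nearest measured on each side, 8 were called (25.8%, against 13.5% of all genes), 5 higher in TS2 and 3 lower. Besides Slc9a2 and Il20ra, the higher ones were Mfsd9 after Slc9a2 (0.63), and Ifi30 (1.40) and the kinase gene Mast3 (0.65) before Il12rb1 on chromosome 8. Ifi30 encodes an interferon-inducible lysosomal thiol reductase. The lower ones were Tmem50b (-0.82) and the purine synthesis gene Gart (-0.67) after Ifngr2, and Rpia (-0.58), an enzyme of the pentose phosphate pathway, after Il23r. Calls were lost without TS2 A or TS2 B for Slc9a2 (adjusted p up to 0.0843), Mfsd9 (0.101), Tmem50b (0.113) and Gart (0.0879). Mast3 (0.126) and Rpia (0.151) lost theirs without TS1 A as well, while Il20ra and Ifi30 passed with any 1 array left out.

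**Figure D3:**
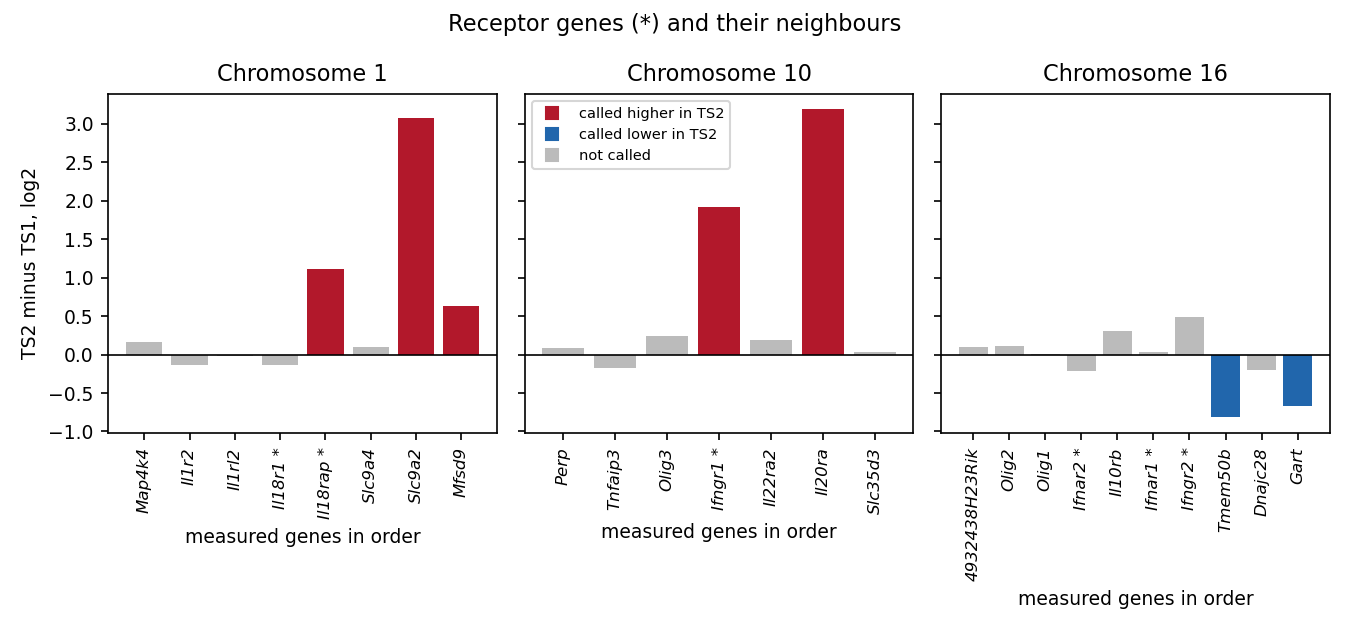
Difference TS2 minus TS1 (vertical axis, log2) of receptor genes, marked with an asterisk, and of their nearest measured protein-coding neighbours in genome order on chromosomes 1, 10 and 16. Bars are red where called higher in TS2, blue where called lower and grey otherwise. Il18rap and Ifngr1 are called next to uncalled neighbours, and Slc9a2 (3.08) and Il20ra (3.20) are the tallest bars.

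The ligands of these receptors were mostly not called. Of 14 measured ligand genes, 2 were higher in TS2, 0 were lower and 12 did not pass, with a median difference of 0.084. That is 14.3% called, against 13.5% of all genes (5.05% higher in TS2 and 8.45% lower). Ifng, which encodes interferon gamma itself, had log2 values of 7.53 and 7.23 on TS2 A and B, against 6.003 and 5.75 on TS1 A and B. The lines did not overlap (difference 1.51, SE 0.15, adjusted p = 0.0059). Il12b, the subunit shared by IL-12 and IL-23, was dim in both lines, with its mean at percentile 30.2 of all genes. It had log2 values of 5.61 and 5.53 on TS2 A and B, against 5.14 and 5.17 on TS1 A and B. Signal over background was not examined, so its presence cannot be read. Il12b differed by 0.41 (adjusted p = 0.0434). No leave-one-out fit kept this call (adjusted p up to 0.228).

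The kinases and transcription factors that the receptors use were higher in TS2 for 3 of 7 measured genes, with 0 lower and a median of 0.45. The share called was 42.9%, against 13.5% of all genes. Stat4, the factor activated through the IL-12 receptor, had log2 values of 11.23 and 11.41 on TS2 A and B, against 4.41 and 4.65 on TS1 A and B. The lines did not overlap (difference 6.79, SE 0.13, adjusted p = 0.000105). Both TS1 values lay below the 25th percentile of gene means (5.08), and signal over background was not examined, so the size of this difference is uncertain. Jak2 differed by 0.64 (adjusted p = 0.0215) and Tyk2 by 0.48 (adjusted p = 0.0465). Jak2 was called in no fit with 1 array fewer (adjusted p 0.0612 to 0.117), and Tyk2 not without TS2 A (0.198), TS2 B (0.192) or TS1 B (0.116), all adjusted p from limma. The count of 3 was 1 without TS2 A, TS2 B or TS1 B. Jak1, which both interferon receptors use, differed by 0.38 (adjusted p = 0.137).

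Genes between the IL-18 receptor and NF-kappa-B went both ways. Of 11 measured, 1 was higher in TS2, 2 were lower and 8 did not pass, with a median of -0.13. The share called was 27.3%, against 13.5% of all genes. Myd88, the adaptor of the IL-18 receptor, had log2 values of 11.20 and 11.21 on TS2 A and B, against 11.21 and 11.09 on TS1 A and B, and the lines overlapped (difference 0.055, adjusted p = 0.759). The kinase gene Irak2 was higher by 1.64 (adjusted p = 0.0271). The kinase gene Map3k7 was lower, with a difference of -0.64 (adjusted p = 0.0339), as was its binding partner Tab3, with -0.61 (adjusted p = 0.0283). Irak2 was not called without TS2 A or TS2 B (adjusted p up to 0.124), Map3k7 without TS2 A, TS2 B or TS1 B (up to 0.165), and Tab3 without any of the 4 (up to 0.141). Of 11 measured inhibitors, 3 were higher in TS2 and 0 lower (27.3% called), with a median of 0.23. They were the phosphatase gene Ptpn6 (1.21, adjusted p = 0.0314) and the feedback inhibitors Socs1 (0.94, SE 0.10, adjusted p = 0.00724) and Socs3 (0.52, adjusted p = 0.0336). The count of inhibitors was 1 without TS2 B, TS1 A or TS1 B, with an adjusted p of up to 0.101 for Ptpn6 and 0.175 for Socs3 in these fits, and Socs3 was not called without TS2 A either (0.114). Il18bp, which encodes the soluble protein that captures IL-18, differed by 0.46 (adjusted p = 0.0525).

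Genes known to respond to these cytokines were counted next. Of 16 measured IL-12 and Stat4 target genes, 5 were higher in TS2, 0 were lower (1 at an unadjusted p under 0.05) and 11 did not pass, with a median of 0.59. The share called was 31.25%, against 13.5% of all genes. Tbx21, which encodes the transcription factor T-bet, led the called ones at 3.47 (SE 0.20, adjusted p = 0.00131). The chemokine gene Ccl3 followed at 2.11 (adjusted p = 0.0155), then the kinase gene Map3k8 at 1.54 (adjusted p = 0.0264), then Ifng and Irf1, which stand in other lists too. Il2ra, the alpha chain of the interleukin-2 receptor and a gene picked after its values were seen, had a difference of 3.90 that did not pass (adjusted p = 0.100). Its log2 values were 11.42 and 9.02 on TS2 A and B, against 7.74 and 4.89 on TS1 A and B. A was brighter than B in both lines, and with the replicate block Il2ra passed (adjusted p = 0.00362), although the letters did not pair the arrays over all genes. The count was 3 without TS1 B, and Ccl3 and Map3k8 lost their calls without TS1 A or TS1 B (adjusted p 0.0579 and 0.0582 for Ccl3, 0.0750 and 0.0985 for Map3k8).

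Of 20 measured interferon gamma target genes, 10 were higher in TS2, 0 were lower (1 at an unadjusted p under 0.05) and 10 did not pass, with a median of 0.92. The share called was 50%, against 13.5% of all genes. Both TS2 arrays lay above both TS1 arrays for 18 of the 20 and below them for 1. Over all genes they lay above for 29.1% and below for 29.3%. Irf8, a transcription factor, was higher by 1.55 (SE 0.10, adjusted p = 0.00173). Irf1, an interferon-inducible transcription factor, was higher by 1.28 (adjusted p = 0.0182) and Nlrc5, the activator of MHC class I genes, by 1.22 (adjusted p = 0.00515). Their sizes depended on the processing. Over all alternative fits the difference ranged from 0.82 to 1.55 for Irf1 and from 1.13 to 2.05 for Nlrc5. The guanylate-binding protein gene Gbp3 was higher by 1.42 (adjusted p = 0.0495). Irf1 was not called without TS2 A (adjusted p = 0.0928) or TS2 B (0.0762), nor Gbp3 without TS2 A (0.184), TS2 B (0.0771) or TS1 B (0.121), all from limma. The count of 10 was 4 without TS2 A, 5 without TS2 B and 13 without TS1 A.

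Of 22 measured type I interferon target genes, 6 were higher in TS2, 0 were lower (0 also at an unadjusted p under 0.05) and 16 did not pass, with a median of 0.60. The share called was 27.3%, against 13.5% of all genes. Xaf1, a pro-apoptotic factor, was higher by 1.75 (SE 0.14, adjusted p = 0.00326). Oasl1 was higher by 1.55 (adjusted p = 0.00631), Oasl2 by 1.41 (adjusted p = 0.0207) and Bst2, which encodes the antiviral protein tetherin, by 1.01 (adjusted p = 0.0139). Oasl1 and Oasl2 are paralogs, so their signals may not be fully separate. Bst2 was not called without TS2 A or TS2 B (adjusted p up to 0.0803), nor Oasl2 without TS2 A or TS1 B (up to 0.0733). The count was 2 without TS2 A, 3 without TS1 B and 12 without TS1 A. Of the 22, TS1 A exceeded TS1 B for 16 (median gap 0.25), against 8818 of all 19938 genes (median -0.026). Among the interferon gamma targets it was 13 of 20 (median gap 0.11). The genes named next were chosen after their values were seen. Trim30a of the type I list had 8.24 on TS1 A and 5.76 on TS1 B, while Ifih1 (8.21 and 9.82) and Mx2 (3.96 and 4.62) of the same list went the other way. Irgm1 (8.84 and 6.56) and Gbp7 (9.02 and 7.51) of the interferon gamma list were brighter on TS1 A. Cd274 (8.44 and 8.69) and Nlrc5 (9.59 and 9.78) of that list were brighter on TS1 B. On the same arrays Ifngr1 had 9.83 and 9.10, Ifnar1 had 9.26 and 9.27 and Ifnar2 had 10.28 and 10.38. Whether the receptor and target values are linked within TS1 was not tested.

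**Figure D4:**
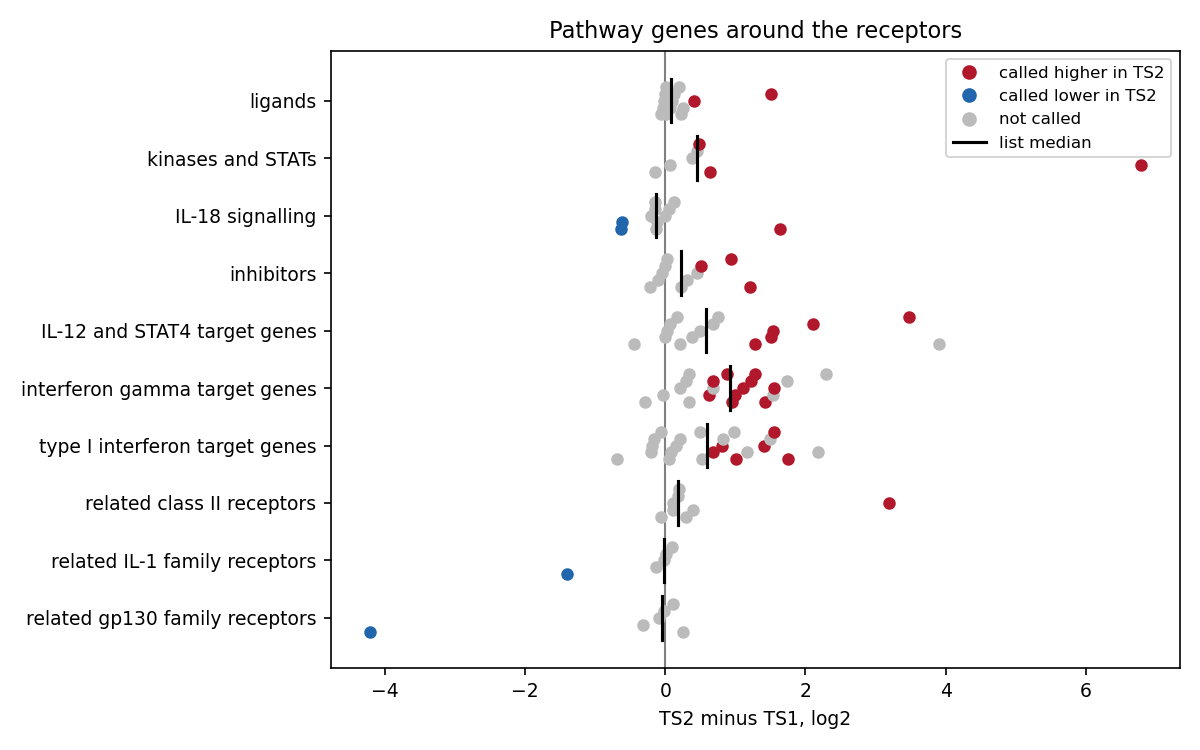
Difference TS2 minus TS1 (horizontal axis, log2) of every measured gene in 10 lists of ligands, signalling genes, inhibitors, target genes and related receptors, 1 point per gene and a bar at each list's median. Red points are called higher in TS2 and blue points lower. Stat4 lies farthest right at 6.79 and Lifr farthest left at -4.22.

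Receptors of the same structural families were also counted. Of 8 measured class II cytokine receptor genes other than the interferon receptors, 1 was higher in TS2 (Il20ra) and 0 were lower, with a median of 0.19. The share called was 12.5%, against 13.5% of all genes. Il10rb, which lies between Ifnar2 and Ifnar1, differed by 0.30 (adjusted p = 0.323). Of 5 measured IL-1 family receptor genes, 0 were higher and 1 was lower (20% called). It was Il1rap, the accessory chain of the interleukin-1 and interleukin-33 receptors, at -1.40 (SE 0.19, adjusted p = 0.0135). This accessory chain had log2 values of 7.62 and 7.12 on TS2 A and B, against 8.86 and 8.67 on TS1 A and B, the opposite order to Il18rap. Of 6 measured receptors of the gp130 family, to which the IL-12 receptor chains are related, 1 was lower, Lifr at -4.22 (adjusted p = 0.0228), and its call was lost without TS2 A (0.102) or TS2 B (0.0918). Lifr had log2 values of 4.66 and 4.80 on TS2 A and B, against 7.85 and 10.04 on TS1 A and B. Both TS2 values lay below the 25th percentile of gene means (5.08), so the size of the Lifr difference is uncertain. Of the gp130 family genes 16.7% were called, and of all genes 13.5% (5.05% higher in TS2 and 8.45% lower). Over all the pathway lists, members of the receptor group left out, 33 of 118 genes were called, 29 higher in TS2 and 4 lower. That count was 15 without TS2 A, 17 without TS2 B and 21 without TS1 B.

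The genes whose pattern over the 4 arrays lay closest to the receptor genes with the largest differences were sought among 17159 named genes, by the Euclidean distance of log2 values centred on their mean. Closest to Ifngr1 were Gpr171, a G protein-coupled receptor gene (distance 0.045), Ppp1r16b (0.14) and Retreg1 (0.19). Each was higher in TS2 by 1.85 to 1.89 and, like Ifngr1, was brighter on TS1 A than TS1 B. Their calls were lost without TS2 A or TS2 B (adjusted p up to 0.0557 for Gpr171, 0.0770 for Ppp1r16b and 0.0647 for Retreg1). Closest to Il12rb2 were Akap6 (0.16), Adgrf5 (0.35) and Hs3st3a1 (0.44). None of these was called with all arrays. All 3 shared the step between the TS2 duplicates: Akap6 had 6.18 on TS2 A and 7.68 on TS2 B, against 5.19 and 4.90 on TS1 A and B. With 4 arrays such closeness describes these arrays only.

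The arrays had median intensities of 88.6 to 89.9 in TS2 and 89.0 to 92.5 in TS1. The CD4 T cell label was checked against its markers. Cd4 itself had log2 values of 5.15 and 5.28 on TS2 A and B, against 5.38 and 5.36 on TS1 A and B, which put its mean at percentile 28.9 of all genes, so Cd4 itself does not bear out the label in either line. Cd3d, Cd2, Cd5, Cd28, Thy1 and Trat1 also lay below the median of all genes (percentiles 1.76 to 44.1) and were not called. Of these, Cd28 had 7.14 and 4.95 on TS2 A and B, against 4.66 and 4.38 on TS1 A and B. Of 11 measured T cell markers, 3 were higher in TS2 and 0 lower, Cd3e (6.21), Cd247 (2.83) and Icos (1.31). That is 27.3% called, against 13.5% of all genes. The summed intensity of all 11, mostly Cd3e, Cd3g and Icos in TS2, was 11185 and 12933 on TS2 A and B, against 2823 and 1225 on TS1 A and B. Cd3g, named after its values were seen, had 10.39 and 11.98 on TS2 A and B, against 10.52 on TS1 A and 6.07 on TS1 B. Cd3e was at 12.74 and 12.53 on TS2 A and B, against 6.45 and 6.41 on TS1 A and B, so it showed no such gap. None of 5 B cell and 8 myeloid cell markers was called (0 of either list by limma, with 1 and 2 at an unadjusted p under 0.05). Of 8 mast cell markers, 2 were lower in TS2, Gata2 (-4.65) and Kit (-1.90), and 0 were higher, with 2 lower and 1 higher at an unadjusted p under 0.05. The 1 higher was Mcpt4, with log2 values of 6.60 and 10.10 on TS2 A and B, against 5.45 and 5.33 on TS1 A and B (difference 2.96, adjusted p = 0.158). The summed intensity of the 8, mostly Fcer1a (difference 0.24, adjusted p = 0.240), was 9052 and 10314 on TS2 A and B, against 9906 and 11480 on TS1 A and B. Of 6 NK cell markers, Klrk1 (4.58) and Ncr1 (1.42) were higher, from TS1 values below the 25th percentile of gene means, and Eomes (-2.88) was lower. Klra8, Klrb1c and Klre1 were not called, and their means lay at percentiles 5.60, 3.78 and 8.73 of all genes. Of 7 fibroblast markers, Pdgfra (-1.78) was lower. The shares called of the mast cell, NK cell and fibroblast markers were 25%, 50% and 14.3%. Ncr1 was not called without TS1 B (adjusted p = 0.0670), nor Pdgfra without TS2 A (0.141), TS2 B (0.0781) or TS1 B (0.0572), by limma. The part of these markers in the receptor differences was not tested. In bulk RNA, fewer cells with a transcript and less transcript per cell cannot be told apart.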

How the data were processed

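Total RNA (250 ng per array) was labelled with an Ambion WT expression kit and an Affymetrix terminal labelling kit, per the labels' protocols. The authors deposited linear intensities, made with Affymetrix Expression Console and RMA per the submitters' processing notes, versions not stated. RMA removes shifts shared by most probe sets of an array. The number of arrays limits the precision, and detection calls, scan days and slides are not used here.

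Log2 of the 35556 intensities was taken here. Of the probe sets, 21789 had 1 gene symbol, 1621 several and 12146 none. Symbols were updated by Entrez number through RefSeq (GRCm38.p6, 21698 found), and the probe set with the highest mean stood for each of 19938 genes. limma 3.58.1 (R 4.3.3, tables read by the package data.table, version 1.17.8) was fitted to all 4 arrays with the line as factor (2 residual and 3.03 prior degrees of freedom) and was tested on simulated data.

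The receptor genes, pathway lists, cell type lists and tests were chosen with earlier results of these data known. Lists are described by counts and medians. Named genes are all 9 receptor genes, up to 4 called genes of each list with the largest differences, fixed genes (Stat4, Jak1, Jak2, Tyk2, Tbx21, Ifng, Il18bp, Myd88, Irf1 and another that is not reported here), the 3 nearest patterns of the 2 receptor genes with the largest differences (predicted, clone, olfactory, vomeronasal, small RNA and LOC symbols left out), and called neighbours. Other genes named beside these were chosen after their values were seen. Alternatives were a replicate block, each array left out, trended, robust or no variance moderation, median centring, renewed quantile normalization, filters removing the dimmest 30% or 50% of probe sets, probe set means, and an adjusted p of 0.01.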

Additional observations from a re-analysis of the deposited data

How the results depend on the processing

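The 3 calls among the receptor genes held with the replicate block, both other prior variances, median centring, quantile normalization, both filters on dim probe sets and probe set means. The count was 1 at an adjusted p of 0.01 (Il12rb1) and 0 without moderation of the variances. With single arrays left out, only Il12rb1 kept its call throughout. Without TS2 A, Ifngr1 and Il18rap lost theirs and Il12rb2 gained one. Without TS2 B, Ifngr1 lost its call, and without TS1 B, Il18r1 was called lower in TS2. Il12rb2 could not be tested with the dimmest 50% of probe sets left out, nor Il23r with either filter. The replicate letters did not pair the arrays (r = -0.029 over genes between the A minus B differences of the lines), and under the replicate block 1666 of all genes were called in place of 2691, and 29 in place of 33 of the pathway genes. Pathway genes called ranged from 15 to 39 with single arrays left out. All genes called ranged from 979 without TS2 A and 1035 without TS2 B to 1565 without TS1 B and 2198 without TS1 A, and were 807 at an adjusted p of 0.01. Fewer arrays leave fewer degrees of freedom, so calls are lost where a difference hardly moves. The sign changed, without a call, for Il18r1 without TS1 A (0.37), Ifnar1 without TS2 A (-0.027), and Il23r without TS2 A (0.098) or TS1 A (0.072). Among other named genes, Tyk2 was not called with an intensity trend (adjusted p = 0.0534) or centring (0.0555), Gbp3 with a robust prior (0.0645), centring (0.0552) or quantile normalization (0.0545), Lifr with a robust prior (0.0688), and Il12b (0.0527) and Rpia (0.0544) with quantile normalization. Il18bp passed with a robust prior (0.0490), quantile normalization (0.0421) and both filters. Under the replicate block Il12b, Jak2, Rpia, Socs3, Tab3 and Tyk2 were not called and Il2ra was (0.00362). Signal over background was not examined, which limits dim values. Examples are Il23r and Il12b in both lines, Il12rb2, Stat4, Klrk1 and Ncr1 in TS1, and Lifr in TS2.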
